A study of Mus musculus with 6 samples.

Results

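Transcripts of 35 genes of NF-kB and tumour necrosis factor (TNF) signalling were compared between mouse fetal liver cells with induced Arid3a and control cells. The genes were taken by symbol from a fixed list, and all 35 were found among the 53801 genes of the count table. They comprised 5 NF-kB subunits, 7 inhibitors and modulators, 5 kinases or kinase partners, 12 TNF receptors with their adaptors, and 6 target genes. A filter on low counts kept 34 of them. Cd40, a TNF-family receptor listed here as a target, did not pass it, with 0 to 2 counts per library.

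NF-kB is a family of dimeric transcription factors that inhibitors of the IkB type hold in the cytoplasm. In the canonical pathway, receptors such as those for TNF act through TRAF adaptors and RIPK1 on a kinase complex of IKK alpha, IKK beta and NEMO, which marks IkB for destruction and frees dimers of RelA, c-Rel and p50. In the non-canonical pathway, the kinase NIK drives the processing of p100 to p52, which pairs with RelB. Several parts of the system, among them IkB proteins, A20, TRAF1 and the precursors p105 and p100, are themselves encoded by NF-kB target genes.

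All 6 libraries came from E12.5-13.5 (embryonic day) fetal liver cells. The mice were B6J.129(Cg)-Gt(ROSA)26Sor with the allele tm1.1(CAG-cas9*,-EGFP)Fezh/J, in which the broadly active CAG promoter drives Cas9 and EGFP. Every sample carried sgGata1, a guide against the blood transcription factor gene Gata1, and the lentivirally expressed microRNA miR-125b, and the cells are called Gata1s after the short form of GATA1. All were given doxycycline at 1 μg/mL for 48 h, which induced LUC in 3 control libraries and Arid3a-FLAG, a tagged ARID-family DNA-binding protein, in the other 3. The controls thus shared the guide, the microRNA, Cas9 and the drug. Neither the number of clones nor the source of each replicate is given in the labels, so p-values measure only the spread between these libraries, which may be technical.

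Libraries held 15728150 to 18249053 gene counts. The Arid3a-FLAG construct had 2758 to 3348 counts in the libraries labelled with it and 0 in each LUC library. LUC library 2 lay apart from the rest on the second principal component (24% of the variance). The blood cell antigen gene Ptprc stood at 114.8 to 142.5 CPM (counts relative to the library total, scaled by TMM factors) in the 6 libraries. Of 7 hepatocyte markers 1 passed the filter, with a summed level of 20.3 to 27.2 CPM with LUC and 16.3 to 20.4 CPM with Arid3a-FLAG. RNA was taken from bulk cells, so fewer cells of a type and less RNA per cell cannot be told apart.

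With Arid3a-FLAG, 6 of the 34 tested members fell, 1 rose and 27 did not pass an adjusted p of 0.05 in edgeR's quasi-likelihood test. With 1 library left out, 2 to 9 members fell (2 without Arid3a-FLAG library 1 or 2, 3 without LUC library 1, 4 without Arid3a-FLAG library 3, 5 without LUC library 3, 9 without LUC library 2), and the rise was kept only without LUC library 2 or 3. In the fit of all 6 libraries, those that fell were the subunit genes Nfkb1, Nfkb2 and Relb, the inhibitor gene Nfkbie, the receptor gene Tnfrsf8 and the adaptor gene Traf1, and the gene that rose was Cd44. The members passed in 20.6% of cases, and 7.29% of all 13631 tested genes did. Other genes of the pathway, described below, passed in 7.29% of cases. The members were chosen with earlier results of these data known, so their shares were not tested as an excess. By direction, 3.87% of all genes were lower and 3.43% were higher. The median log2 fold change was -0.03 over the members and -0.03 over all tested genes, and the median size of the change was 0.21 and 0.20. Changes of more than 2-fold were seen in Tnfrsf8 and Traf1 only. Every library of one group lay above every library of the other for 19 of the 34 members (55.9%), 13 with LUC above and 6 with LUC below, and for 33.1% of all tested genes.

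**Figure D1:**
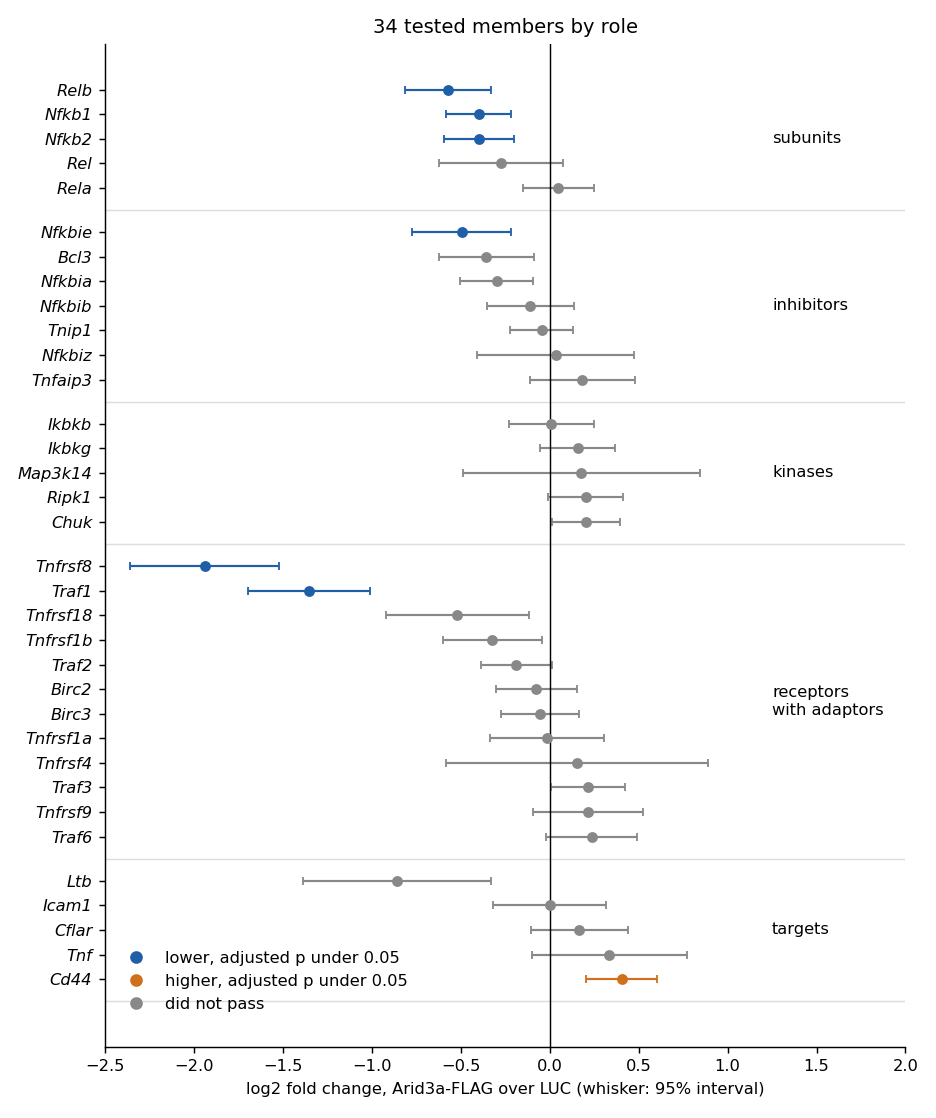
Log2 fold change of Arid3a-FLAG over LUC for the 34 tested members, grouped by role on the vertical axis; points are estimates from edgeR, whiskers are 95% intervals without adjustment for the number of genes, and colour marks the call. Tnfrsf8 at -1.94 and Traf1 at -1.35 lie farthest from 0, the 5 kinases lie between 0.01 and 0.21, and Cd44 at 0.40 is the member that rose.

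Among the subunits, 3 of 5 fell and 2 did not pass, with a median log2 fold change of -0.40. For this role and those below, the shares over all tested genes were 3.87% lower and 3.43% higher. Nfkb1 (ENSMUSG00000028163, chromosome 3, 135584655 to 135691547, minus strand, mm10), which encodes p105 and its product p50, had 291.6, 297.5 and 294.0 CPM in LUC libraries against 225.8, 228.5 and 215.5 CPM under Arid3a-FLAG. The LUC libraries lay close together and all above the Arid3a-FLAG libraries. Nfkb1 changed by -0.40 on the log2 scale (SE 0.08, 95% interval -0.58 to -0.21, adjusted p = 0.0192), a 1.32-fold lower level.

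Nfkb2 (ENSMUSG00000025225, chromosome 19, 46304320 to 46312385, plus strand), which encodes the non-canonical precursor p100, had 128.8, 120.5 and 120.04 CPM in LUC libraries against 92.1, 100.7 and 87.8 CPM under Arid3a-FLAG. Its groups did not overlap either, and the log2 fold change was -0.40 (SE 0.09, 95% interval -0.59 to -0.20, adjusted p = 0.0252). Exons of Psd share 299 bases (6.52%) of the Nfkb2 exons on the opposite strand, and Psd had 10.6 to 13.8 CPM with LUC and 10.9 to 13.8 CPM with Arid3a-FLAG. AC114539.1 shares 531 bases of the Nfkb2 exons on the opposite strand, and its counts were not analysed here. The value of Nfkb2 is therefore uncertain where counting did not use strand.

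Relb (ENSMUSG00000002983, chromosome 7, 19606217 to 19629438, minus strand), whose product pairs with p52, had 35.3, 43.6 and 37.6 CPM in LUC libraries against 26.8, 24.8 and 26.6 CPM under Arid3a-FLAG. All 3 Arid3a-FLAG libraries were below the lowest LUC library. The estimate of -0.57 on the log2 scale (SE 0.11, 95% interval -0.82 to -0.33, adjusted p = 0.0135) was the largest in size among the subunits.

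Rela (ENSMUSG00000024927, chromosome 19, 5637483 to 5648130, plus strand), the main transactivating subunit of the canonical dimers, had 94.8, 110.8 and 109.1 CPM in LUC libraries against 105.5, 109.9 and 109.8 CPM under Arid3a-FLAG. The groups overlapped, and the log2 fold change was 0.05 (SE 0.09, 95% interval -0.15 to 0.25, adjusted p = 0.778). Rel, which encodes c-Rel, averaged 14.2 CPM in LUC libraries against 11.8 CPM under Arid3a-FLAG and did not pass (log2 fold change -0.27, 95% interval -0.62 to 0.07, adjusted p = 0.298). Per kilobase of exon, the mean LUC levels ran from Rela at 34.1 CPM per kb through Nfkb2 (26.9), Nfkb1 (24.4) and Relb (9.99) to Rel (1.90). With Arid3a-FLAG the order was the same, at 35.3, 20.4, 18.5, 6.71 and 1.58 CPM per kb.

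The calls of the subunits changed when 1 library was left out. The number of calls over all genes changed in these fits too, as given below. None of the 5 subunits passed without Arid3a-FLAG library 1 or 2. Of these genes, 1 fell without Arid3a-FLAG library 3 or LUC library 1, and 3 fell without LUC library 2 or 3. Directions held throughout these fits, with log2 fold changes of -0.41 to -0.37 for Nfkb1, -0.45 to -0.34 for Nfkb2 and -0.61 to -0.47 for Relb.

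**Figure D2:**
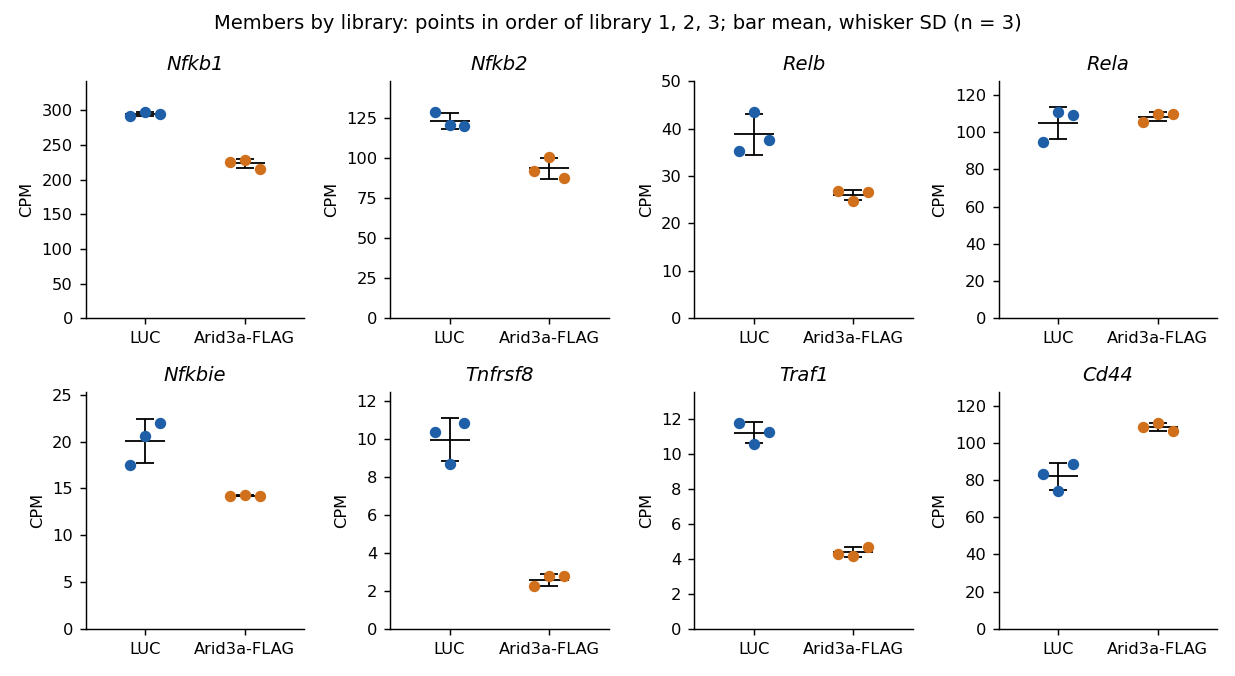
CPM of the 7 called members and of Rela in each library; each panel has its own vertical axis from 0, points are libraries 1 to 3 from left to right, the bar is the mean and the whisker the SD (n = 3). The groups are apart in every panel but that of Rela, where LUC runs from 94.8 to 110.8 CPM and Arid3a-FLAG from 105.5 to 109.9 CPM.

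Ratios of a pair of members within a library do not depend on how libraries are scaled. There were 6 such pairs, chosen after the values were seen, each a member that fell over a member that did not pass. The direction of the ratios therefore follows from this choice, and they are given as a description only. The counts of Nfkb1 were 2.68 to 3.08 times those of Rela with LUC and 1.96 to 2.14 times with Arid3a-FLAG. Nfkb2 over Rela lay between 1.09 and 1.36 with LUC and between 0.799 and 0.917 with Arid3a-FLAG. Relb over Rela lay between 0.344 and 0.393 in LUC and between 0.226 and 0.254 in Arid3a-FLAG. The counts of these 3 subunits per Rela count were lower in every Arid3a-FLAG library than in any LUC library. The mean log2 differences were -0.45, -0.45 and -0.62.

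**Figure D3:**
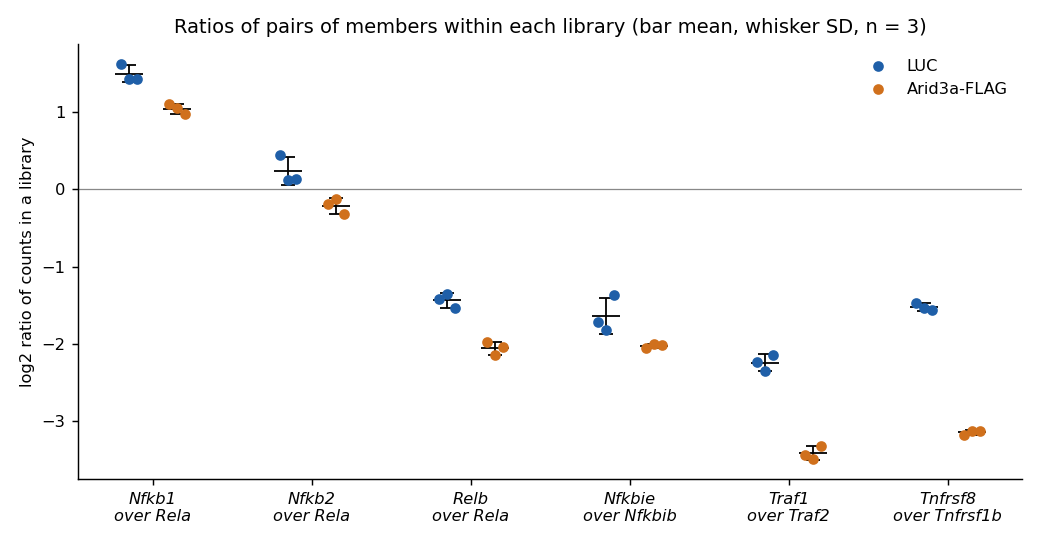
Log2 ratio of the counts of a pair of members within each library (vertical axis), for 6 pairs (horizontal axis); points are libraries, bars means and whiskers SD (n = 3). Each pair sets a member that fell over a member that did not pass, so the shared direction follows from the choice of pairs. All are lower in the 3 Arid3a-FLAG libraries than in the 3 LUC libraries. Mean differences run from -0.39 for Nfkbie over Nfkbib to -1.62 for Tnfrsf8 over Tnfrsf1b.

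Of the 7 inhibitors and modulators 1 fell and 6 did not pass, with a median log2 fold change of -0.11. Nfkbie (ENSMUSG00000023947, chromosome 17, 45555703 to 45563169, plus strand), which encodes IkB epsilon, an inhibitor that retains RelA and c-Rel dimers, had 17.4, 20.6 and 22.02 CPM in LUC libraries against 14.2, 14.3 and 14.2 CPM under Arid3a-FLAG. The Arid3a-FLAG libraries were nearly level and all below LUC. The log2 fold change was -0.49 (SE 0.13, 95% interval -0.77 to -0.22, adjusted p = 0.0406). This call was lost in 5 of 6 fits with 1 library left out, all but that without LUC library 2, with adjusted p up to 0.159 and log2 fold changes of -0.56 to -0.39. Nfkbie over Nfkbib, the ratio to the gene of IkB beta, was 0.282 to 0.386 with LUC and 0.241 to 0.249 with Arid3a-FLAG.

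Nfkbia (ENSMUSG00000021025), the gene of IkB alpha and a standard readout of NF-kB activity, had 39.9, 39.6 and 42.8 CPM in LUC libraries against 32.3, 33.8 and 33.4 CPM under Arid3a-FLAG. All LUC libraries were above all Arid3a-FLAG libraries, but the gene did not pass (log2 fold change -0.30, SE 0.09, adjusted p = 0.0786). Without LUC library 2 its adjusted p was 0.0307. Bcl3, an atypical IkB that binds p50 and p52 in the nucleus, had 56.5, 55.1 and 59.05 CPM in LUC libraries against 39.05, 53.0 and 41.2 CPM under Arid3a-FLAG. Arid3a-FLAG library 2 came close to the LUC range, and the change did not pass (-0.36, SE 0.12, adjusted p = 0.0982).

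The remaining 4 modulators had overlapping groups. Tnip1, which encodes a partner of A20 and had the highest level per kilobase of the inhibitors (32.04 CPM per kb with LUC), stood at 112.0, 115.5 and 112.8 CPM in LUC libraries against 107.7, 112.7 and 109.5 CPM under Arid3a-FLAG. Its log2 fold change was -0.04 (95% interval -0.22 to 0.13, adjusted p = 0.760). Tnfaip3, the gene of the ubiquitin-editing enzyme A20, gave 0.18 (adjusted p = 0.419), Nfkbiz, an inducible nuclear IkB, 0.03 (0.935) and Nfkbib -0.11 (0.568), each as a log2 fold change. Exons of Sirt2, at 44.6 to 59.05 CPM, share 42 bases with Nfkbib on the opposite strand.

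None of the 5 kinase genes passed in edgeR, and DESeq2 and limma-voom called 0 as well; 1 was higher at an unadjusted p under 0.05. Their log2 fold changes lay between 0.01 and 0.21, with a median of 0.18. Chuk, which encodes IKK alpha, had 74.8, 77.1 and 78.97 CPM in LUC libraries against 83.0, 94.4 and 88.8 CPM under Arid3a-FLAG. Its groups did not overlap, with LUC below (log2 fold change 0.21, SE 0.09, 95% interval 0.01 to 0.40, adjusted p = 0.171). Ikbkb, the gene of IKK beta, gave 0.01 (adjusted p = 0.964), Ikbkg, that of the scaffold NEMO, 0.16 (0.323), and Ripk1, the receptor-interacting kinase, 0.20 (0.213). Map3k14, which encodes NIK, averaged 4.07 CPM in LUC libraries against 4.65 CPM under Arid3a-FLAG, and its 95% interval was wide, from -0.49 to 0.85. Exons of G6pdx, at 131.7 to 161.2 CPM, share 418 bases with Ikbkg, and those of Serpinb6a, at 133.1 to 198.5 CPM, share 241 bases with Ripk1, on the opposite strand in both cases. These values of Ikbkg and Ripk1 are uncertain where counting did not use strand. Gm17084, with 0 counts in every library, shares 511 bases (6.12%) of the Ripk1 exons on the same strand. The value of Ripk1 is therefore uncertain with use of strand as well.

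Among the 12 receptors and adaptors 2 fell and 10 did not pass, with a median log2 fold change of -0.07. Tnfrsf8 (ENSMUSG00000028602, chromosome 4, 145267137 to 145315164, minus strand) encodes CD30, a TNF-family receptor best known from activated lymphocytes. It had 10.3, 8.70 and 10.8 CPM in LUC libraries against 2.23, 2.79 and 2.76 CPM under Arid3a-FLAG, or 133 to 201 counts against 36 to 48. The lowest LUC library was thus far above the highest Arid3a-FLAG library. The log2 fold change was -1.94 (SE 0.19, 95% interval -2.36 to -1.52, adjusted p = 0.000416), a 3.83-fold lower level.

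Traf1 (ENSMUSG00000026875, chromosome 2, 34941750 to 34961772, minus strand) encodes an adaptor that binds TRAF2 and the tails of CD30 and of the second TNF receptor. It had 11.8, 10.6 and 11.3 CPM in LUC libraries against 4.28, 4.18 and 4.71 CPM under Arid3a-FLAG. Both groups were tight and lay apart. The log2 fold change was -1.35 (SE 0.16, 95% interval -1.70 to -1.01, adjusted p = 0.000878), a 2.56-fold lower level. Tnfrsf8 and Traf1 passed in each of the 13 alternatives, with an adjusted p of at most 0.00423 and 0.0105. No exon of another gene overlaps those of Tnfrsf8 or Traf1 in the annotation used.

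Close relatives of these genes did not pass. Traf2, the adaptor that recruits cIAP ligases, had a log2 fold change of -0.19 (adjusted p = 0.219), and Traf1 over Traf2 was 0.195 to 0.227 with LUC and 0.0896 to 0.1004 with Arid3a-FLAG. Tnfrsf1b, the gene of the second TNF receptor, had 28.5, 25.2 and 31.9 CPM in LUC libraries against 20.2, 24.3 and 24.2 CPM under Arid3a-FLAG. LUC was above in every library, without passing (-0.32, SE 0.13, adjusted p = 0.142). Tnfrsf8 over Tnfrsf1b was 0.340 to 0.362 with LUC and 0.111 to 0.115 with Arid3a-FLAG. Tnfrsf18 encodes GITR, a TNF-family receptor of T cells. It had 10.3, 8.57 and 11.9 CPM in LUC libraries against 5.96, 7.49 and 8.04 CPM under Arid3a-FLAG. The gene did not pass (-0.52, SE 0.18, adjusted p = 0.107). Exons of Gm16008 share 27.2% of the Tnfrsf18 exons on the opposite strand, with 1.77 to 6.53 CPM, so the value of Tnfrsf18 is uncertain. Without LUC library 2, Tnfrsf1b and Tnfrsf18 passed as lower, with adjusted p of 0.0341 and 0.0299.

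Traf3, which restrains NIK and was the most abundant of these genes per kilobase (11.5 CPM per kb with LUC), had 90.9, 75.9 and 87.7 CPM in LUC libraries against 98.6, 101.8 and 94.9 CPM under Arid3a-FLAG. LUC was below in every library, and the gene did not pass (0.21, SE 0.09, adjusted p = 0.183). Traf6, the adaptor of interleukin-1 and Toll-like receptors, gave 0.24 (adjusted p = 0.225), Tnfrsf9, which encodes 4-1BB, 0.22 (0.360), and Tnfrsf4, which encodes OX40, 0.15 (0.806) at a mean of 1.59 CPM with LUC. Tnfrsf1a, the gene of the main TNF receptor, gave -0.02 with a 95% interval of -0.34 to 0.30. The cIAP ligase genes Birc2 and Birc3 gave -0.08 and -0.06 (adjusted p of 0.689 and 0.758).

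**Figure D4:**
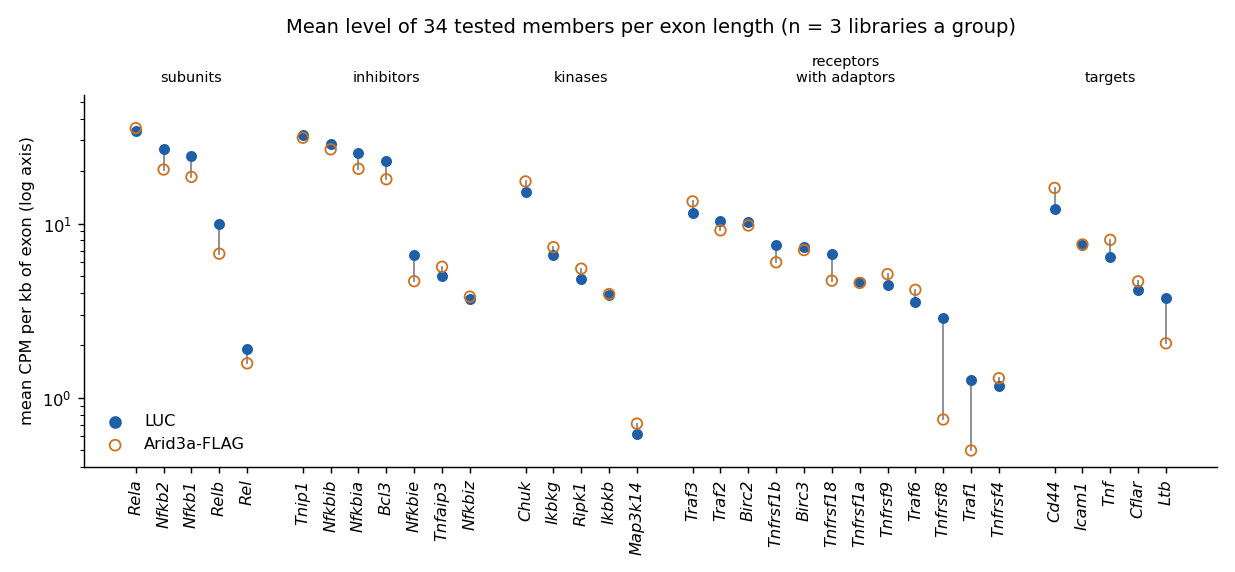
Mean CPM per kilobase of annotated exon (vertical log axis) of the 34 tested members, ordered within each role by the LUC level; filled points are LUC and open points Arid3a-FLAG (3 libraries each), joined by a line. Tnfrsf8 (2.88 to 0.750) and Traf1 (1.27 to 0.498) are low in both groups and have the longest lines beside Ltb (3.73 to 2.05).

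Markers of several blood cell types were called as well, where 3.87% of all tested genes were lower and 3.43% higher. Megakaryocyte and erythroid markers were called in 46.7% and 45.5% of tested cases, with 6 and 4 rises and 1 fall in each list. Of 19 T and natural killer cell markers 7 were tested, 4 fell and none rose, and their summed level was 466.0 to 615.6 CPM with LUC and 217.1 to 384.7 CPM with Arid3a-FLAG. Most of that sum was Gzmb, a granzyme gene, at a mean of 493.8 CPM in LUC libraries against 271.1 CPM under Arid3a-FLAG. Besides Gzmb, the markers of this list that fell were Nkg7, Il7r and Lef1. Nkg7 went from a mean of 26.5 to 3.53 CPM (log2 fold change -2.90, adjusted p = 0.000104). Il7r changed by -1.21 (adjusted p = 0.0128) and Lef1, at 2 to 17 counts per library, by -2.25 (0.0202). Lck, Klrb1c and Cd5 were tested and did not pass. The T cell genes Cd8a, Cd8b1, Cd2 and Cd28 and the natural killer gene Klrk1 had no count in any library. Of 15 mast cell and basophil markers 13 were tested and 3 fell, with sums of 3062 to 3638 CPM with LUC and 2173 to 2968 CPM with Arid3a-FLAG. Of 13 neutrophil markers 4 were tested and 3 fell, with sums of 25.3 to 29.3 and 12.2 to 25.6 CPM. Of 14 monocyte and macrophage markers 6 were tested, 1 rose and none fell, with sums of 21.3 to 26.4 and 27.4 to 37.3 CPM. No gene of 8 B cell markers passed the filter. The part of these cell types in the changes of Tnfrsf8, Traf1 and the subunits was not tested.

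Among the 5 tested targets 1 rose and 4 did not pass, with a median log2 fold change of 0.17. Cd44 (ENSMUSG00000005087, chromosome 2, 102811141 to 102901665, minus strand), the hyaluronan receptor and the target with the highest level per kilobase, had 83.0, 74.4 and 88.5 CPM in LUC libraries against 108.3, 110.8 and 106.4 CPM under Arid3a-FLAG. The LUC libraries varied more and lay below. The log2 fold change was 0.40 (SE 0.09, 95% interval 0.20 to 0.61, adjusted p = 0.0257). This call was lost without LUC library 1 or any 1 of the Arid3a-FLAG libraries, with adjusted p up to 0.141 and log2 fold changes of 0.35 to 0.49.

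Ltb, which encodes lymphotoxin beta, a ligand that triggers the non-canonical pathway, had 4.91, 6.28 and 5.78 CPM in LUC libraries against 2.30, 2.96 and 4.08 CPM under Arid3a-FLAG. The groups were apart, and the gene narrowly missed the threshold (log2 fold change -0.86, SE 0.24, adjusted p = 0.0550). It passed as lower in 5 of 13 alternatives: DESeq2 (0.0215), limma-voom (0.0479), no filter on low counts (0.00775), the replicate number as a block (0.0470) and without Arid3a-FLAG library 3 (0.0397). Over all 13 its adjusted p ran from 0.00775 to 0.204. The remaining targets had overlapping groups. The cytokine gene Tnf averaged 10.5 CPM in LUC libraries against 13.2 CPM under Arid3a-FLAG (0.34, adjusted p = 0.311), the adhesion molecule gene Icam1 33.0 and 33.1 CPM (95% interval -0.32 to 0.32), and the caspase-8 regulator gene Cflar 52.5 and 59.0 CPM (0.17, adjusted p = 0.422).

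A wider list of 131 other genes of the pathway was examined in the same fit, and 96 of them were tested. Of these 2 rose, 5 fell and 89 did not pass (7.29% called, against 7.29% of all genes), with a median log2 fold change of -0.05. Tnip3 (chromosome 6, 65525313 to 65634040), which encodes an A20-binding inhibitor related to TNIP1, had 12.7, 14.6 and 12.1 CPM in LUC libraries against 4.72, 5.98 and 5.96 CPM under Arid3a-FLAG. Its fall of 2.36-fold (log2 fold change -1.24, SE 0.16, adjusted p = 0.00195) was the only call of this list that held in each of the 13 alternatives.

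The other genes that fell encode inflammatory products and ligands. Il1b, the gene of interleukin-1 beta, whose exons meet those of Il1bos on the opposite strand over 25 bases, went from a mean of 21.3 ± 4.67 to 11.8 ± 0.835 CPM (SD, n = 3; log2 fold change -0.85, adjusted p = 0.0155). Nos2, the inducible nitric oxide synthase gene, had 14.1, 5.75 and 12.3 CPM in LUC libraries against 3.72, 4.06 and 4.39 CPM under Arid3a-FLAG, so LUC library 2 lay near the Arid3a-FLAG range (-1.40, adjusted p = 0.0192). Among the ligands, the death ligand gene Tnfsf10 (TRAIL) had a log2 fold change of -0.99 (adjusted p = 0.0386) and Tnfsf12 (TWEAK) of -1.83 (0.0451). Tnfsf12 rested on 20 to 27 counts against 3 to 12 and has 48.3% of its exon length in common with the same-strand gene Tnfsfm13, which makes its value uncertain.

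Those that rose were Tirap, an adaptor of Toll-like receptors that shares 39 bases with the abundant gene Srpr on the opposite strand (0.53, adjusted p = 0.0287), and Tnfrsf11b, which encodes the decoy receptor osteoprotegerin (1.61, adjusted p = 0.0463, 3 to 6 counts against 14 to 16). The calls of Nos2, Tirap, Tnfsf10 and Tnfsf12 were lost in 4 of 6 fits with 1 library left out, that of Tnfrsf11b in 5 and that of Il1b in 2. Tnfrsf11b also did not pass in DESeq2 (adjusted p = 0.0777). The wider list held 0 rises and 1 fall when Arid3a-FLAG library 1 or 2 was left out, and 1 rise and 7 falls when library 3 of that group was. Leaving out a LUC library gave 0 rises and 2 falls (library 1), 6 and 14 (library 2) or 1 and 3 (library 3).

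Promoter windows from RefSeq (GRCm38.p6, the assembly of mm10), each 250 bases before to 50 after a start site, were found for 30 of the 35 members, in 39 windows. The members Nfkb1, Relb, Ikbkb, Nfkbiz and Cd40 had no entry. The kappa-B decamer consensus, the site type that NF-kB dimers bind, was searched on both strands. It was present in 13 of the 39 windows (33.3%), from 11 genes, and in 4.51% of all 32851 windows. A stricter canonical form, contained in the consensus, was present in 4 windows (10.3%), from Ltb, Nfkb2 and Nfkbia, and in 0.411% of all windows. Overlapping windows of Nfkb2 hold the same match of this form and were counted separately. The members were listed as parts or targets of NF-kB signalling, so these shares are no test of an excess of sites. Of the 4 members with a window that fell, Nfkb2, Nfkbie and Tnfrsf8 held the consensus and Traf1 did not. Among the 25 members with a window that did not pass, 8 held it. A link between the consensus and the calls was not tested. The window of Cd44 held none of the motifs searched.

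The windows of members that fell are shown for these matches. Capitals mark every match to the kappa-B consensus or to ATTAAA or ATCAAA, core forms of the ARID3A motif, on either strand, and each sequence reads in the direction of its gene.
Nfkb2, upstream start, chr19:46304487-46304786, plus strand: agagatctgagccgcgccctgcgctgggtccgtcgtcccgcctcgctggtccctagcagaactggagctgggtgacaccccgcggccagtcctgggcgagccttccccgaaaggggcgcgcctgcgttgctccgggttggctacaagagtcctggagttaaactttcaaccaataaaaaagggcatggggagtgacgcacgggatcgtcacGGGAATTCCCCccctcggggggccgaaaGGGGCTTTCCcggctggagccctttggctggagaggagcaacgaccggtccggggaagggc
Nfkb2, middle start, chr19:46305445-46305744, plus strand: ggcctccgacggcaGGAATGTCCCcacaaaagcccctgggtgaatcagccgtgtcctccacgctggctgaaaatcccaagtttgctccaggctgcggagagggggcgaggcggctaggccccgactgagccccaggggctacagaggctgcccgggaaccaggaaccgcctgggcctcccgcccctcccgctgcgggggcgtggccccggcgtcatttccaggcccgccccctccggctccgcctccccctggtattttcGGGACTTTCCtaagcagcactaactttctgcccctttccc
Nfkbie, chr17:45555450-45555749, plus strand: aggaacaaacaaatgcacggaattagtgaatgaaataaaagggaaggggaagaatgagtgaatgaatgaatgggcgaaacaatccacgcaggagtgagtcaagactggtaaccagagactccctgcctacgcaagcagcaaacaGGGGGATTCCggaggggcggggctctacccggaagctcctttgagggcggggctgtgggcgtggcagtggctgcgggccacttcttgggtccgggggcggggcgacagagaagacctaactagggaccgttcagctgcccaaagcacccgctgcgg
Tnfrsf8, chr4:145315115-145315414, minus strand: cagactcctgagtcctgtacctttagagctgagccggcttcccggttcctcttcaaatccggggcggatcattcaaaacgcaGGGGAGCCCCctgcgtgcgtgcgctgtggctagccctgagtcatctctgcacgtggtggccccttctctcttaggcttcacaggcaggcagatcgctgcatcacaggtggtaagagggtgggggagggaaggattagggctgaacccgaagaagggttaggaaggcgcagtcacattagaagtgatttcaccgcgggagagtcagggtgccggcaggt
Traf1, chr2:34961723-34962022, minus strand: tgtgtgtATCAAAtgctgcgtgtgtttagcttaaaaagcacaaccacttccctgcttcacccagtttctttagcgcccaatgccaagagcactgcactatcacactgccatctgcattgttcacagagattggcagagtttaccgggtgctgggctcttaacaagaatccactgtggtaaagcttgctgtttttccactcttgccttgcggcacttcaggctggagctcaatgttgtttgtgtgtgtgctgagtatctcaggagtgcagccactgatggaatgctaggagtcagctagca

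In the upstream Nfkb2 window the matches began 39, 38 and 11 bases before the start, and the first of them, GGGAATTCCC, reads alike on both strands. The middle Nfkb2 window held GGGACTTTCC at base 11 after the start and a match on the opposite strand 236 bases before it. The remaining window of Nfkb2 overlaps the middle one and holds the same GGGACTTTCC. The match in Nfkbie was GGGGGATTCC, 106 bases before the start, and that in Tnfrsf8, 168 bases before it, was GGGGAGCCCC, or GGGGCTCCCC on the opposite strand. ATCAAA stood 243 bases before the start of Traf1. Over all members ATTAAA was in 2 of 39 windows (5.13%, against 13.9% of all windows) and ATCAAA in 7 (17.9%, against 11.9%). TATAAA, the letters of the TATA box, was in 5 (12.8%, against 13.6%), counted at any place in the window and on either strand. Members that did not pass held the consensus too, among them Rel, Tnip1, Tnfaip3, Tnfrsf9 and Traf3. A match is a description of these letters and was not tested as a site.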

How the data were processed

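The authors deposited 1 table of raw whole-number counts per gene, whose columns were matched to 3 LUC and 3 Arid3a-FLAG libraries by their descriptions. Reads went through fastp, HISAT2 2.0.5 and featureCounts with mm10, per the submitters' processing notes. Not given in the sources used here were settings, annotation release and use of strand. Library sizes and tests excluded the construct entry. Symbols, coordinates and union exon lengths came from GENCODE M21 (GRCm38); 181 identifiers, with at most 0.0467% of a library's counts, had no match.

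The quasi-likelihood test of edgeR 4.0.16 in R 4.3.3 was used (filterByExpr, TMM, glmQLFit, glmQLFTest; 1 term for the group, two-sided, Benjamini-Hochberg over 13631 genes, threshold 0.05). Standard errors were derived as |log2 fold change| over root F. CPM values use TMM-scaled library sizes. The alternatives changed the factors (RLE, upper quartile), the filter (none; 1 CPM in 3 libraries), the tool (DESeq2 1.42.0; limma-voom, limma 3.58.1) or the samples (each library left out), or added a replicate block. Members and lists were chosen with earlier results of these data known. All members are named; called members, the 5 others with the smallest p and the most abundant per kilobase of each role have values per library; of the wider list, called genes are named. Marker lists covered mast cells and basophils, T and natural killer cells, B cells, monocytes and macrophages, neutrophils, dendritic cells, megakaryocytes, erythroid cells, hepatocytes, and endothelium and stroma.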

Additional observations from a re-analysis of the deposited data

How the results depend on the processing

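No member or gene of the wider list that passed changed direction in any of the 13 alternatives, and 9 of the 34 tested members, none of them called, changed sign in at least 1. With 1 library left out, the genes called over all genes ran from 115 to 1191 higher and from 118 to 1095 lower. In the same fits the members ran from 0 to 1 higher and from 2 to 9 lower. By role, subunits ran from 0 to 3 lower, inhibitors from 0 to 2 lower, receptors with adaptors from 2 to 4 lower and targets from 0 to 1 higher and from 0 to 1 lower; the wider list ran from 0 to 6 higher and from 1 to 14 lower. With no filter on low counts, 869 genes were higher and 1076 lower, the wider list had 5 higher and 11 lower, and targets had 1 lower. Requiring 1 CPM left 1 higher in the wider list, from which Tnfrsf11b drops out as untested. DESeq2 called 771 genes higher and 1 target lower, and limma-voom 1 target lower, in both cases Ltb. The cause of these changes was not tested. Deviations of same-numbered libraries correlated at -0.10, -0.11 and 0.12, and those of differently numbered libraries at -0.18 to 0.21. So few libraries cannot settle whether the numbers pair them. With the replicate block 410 genes were higher and 530 lower, and 0 inhibitors were lower (Nfkbie, adjusted p = 0.0562). In that fit 1 target was lower and Tnfrsf11b of the wider list did not pass (adjusted p = 0.0808). Members of few counts, such as Tnfrsf4 and Map3k14, were measured least precisely.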

Other observations

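Among megakaryocyte markers, which the cells also carried, 6 of 15 rose and 1 fell, with summed levels of 6749 to 8494 CPM in LUC libraries against 7285 to 7825 CPM under Arid3a-FLAG. Of 13 erythroid markers 11 were tested, 4 rose and 1 fell, with sums of 217.1 to 268.6 and 325.2 to 416.3 CPM. Of 9 endothelial and stromal markers 4 were tested, 1 rose and 1 fell, and of 8 dendritic cell markers 3 were tested and did not pass, with sums of 27.5 to 42.1 and 34.2 to 46.5 CPM.

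Among inflammatory genes of the wider list that did not pass, these are named with their values known. The chemokine gene Ccl2 averaged 73.9 CPM in LUC libraries against 43.6 CPM with Arid3a-FLAG with overlapping groups (adjusted p = 0.107). Ptgs2, the inducible prostaglandin synthase gene, went the other way, at 6.29 and 9.92 CPM with all Arid3a-FLAG libraries above (log2 fold change 0.66, adjusted p = 0.0541). Il2ra, the gene of the interleukin-2 receptor alpha chain, averaged 2.30 and 1.06 CPM (-1.12, adjusted p = 0.0859).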
